A study of Mus musculus with 18 samples.

Results

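Interferon response genes are the genes that cells switch on once an interferon has bound its receptor. A list of 37 of them was followed in RNA from mouse bile duct cells. It was chosen by name with earlier results of these data known. All 37 were found by symbol among the 55401 genes counted. The 18 libraries hold RNA of primary cholangiocytes, the lining cells of bile ducts, enriched with an antibody to EpCAM after the liver parenchyma was removed, and they form 6 groups of 3. Wild-type (WT) mice and mice with polycystic liver disease (PLD), a disorder of growing biliary cysts, were sampled 1 month and 2 months after tamoxifen. The last 2 groups are PLD mice given CPTH6, which is known to inhibit the acetyltransferases Kat2a and Kat2b, or ML324, which is known to inhibit KDM4 demethylases, both classes of enzyme that act on histones. Library titles of these 2 groups give 3 months. The labels name neither the gene inactivated in PLD mice, nor the promoter that drives recombination, nor a dose, and no WT or untreated PLD library at 3 months was analysed here. Nothing in the labels ties each replicate to its own animal, so the p-values cover the scatter of these libraries alone, which may be technical.

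Cells carry sensors for foreign or misplaced RNA and DNA. When a sensor fires, the cell makes type I or type III interferon, which binds its receptor and, through the kinases Jak1 and Tyk2, activates transcription factors, among them Stat2 and Irf9, which act in the complex ISGF3. This complex binds a short DNA element, the interferon-stimulated response element, before the genes it controls, among them Irf7, which in turn drives more interferon. Bile duct epithelium is exposed to gut-derived microbial products and is known to mount such a response. The members fall into transcription factors, nucleic acid sensors, the OAS and IFIT families, other antiviral effectors, the ISG15 system, PARP proteins with their partner, other regulators, guanylate binding proteins and antigen processing genes.

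The core letters of the interferon-stimulated response element, GAAA and again GAAA with any 2 bases (NN) between them, were looked for on both strands in the RefSeq promoter windows of the members (GRCm38.p6, the assembly also called mm10), each running from 250 bases before to 50 bases after the start of a gene. Of the 37 members 28 had a window, and 14 of these (50%) held the letters, against 3.99% of all 27025 genes with a window. The 7 members with at least 2 matches, some of which overlap, were Ifit1, Ifit3, Ifit3b, Isg15, Oas1a, Bst2 and Gbp3, against 0.266% of all genes. The core of another interferon element, the gamma-activated site TTCNNNGAA, was in the windows of 6 members (21.4%) and in those of 9.55% of all genes. The windows below show the 200 bases before the start, with each match in capitals. They were chosen because 5 of them, of genes that make antiviral proteins, hold several matches, while that of Tap1, an antigen processing gene whose levels run differently below, holds none of these letters. A match describes the letters and not a site in use.
Ifit3, plus strand, chr19:34583329-34583528: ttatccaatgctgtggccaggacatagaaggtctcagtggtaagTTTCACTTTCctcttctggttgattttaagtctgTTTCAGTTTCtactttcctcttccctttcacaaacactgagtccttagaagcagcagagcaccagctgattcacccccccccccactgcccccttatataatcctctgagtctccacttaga
Ifit1, plus strand, chr19:34640689-34640888: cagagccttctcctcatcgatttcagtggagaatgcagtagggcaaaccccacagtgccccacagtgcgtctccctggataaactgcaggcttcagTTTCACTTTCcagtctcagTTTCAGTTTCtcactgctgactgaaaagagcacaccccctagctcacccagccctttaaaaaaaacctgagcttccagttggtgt
Isg15, minus strand, chr4:156200819-156201018: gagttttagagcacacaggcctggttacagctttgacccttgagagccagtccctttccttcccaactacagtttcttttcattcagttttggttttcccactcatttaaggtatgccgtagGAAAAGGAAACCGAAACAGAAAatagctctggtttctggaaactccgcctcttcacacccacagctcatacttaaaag
Bst2, minus strand, chr8:71537473-71537672: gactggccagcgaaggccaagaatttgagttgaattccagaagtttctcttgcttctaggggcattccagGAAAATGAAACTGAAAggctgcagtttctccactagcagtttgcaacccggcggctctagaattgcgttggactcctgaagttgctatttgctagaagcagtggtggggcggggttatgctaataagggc
Oas1a, minus strand, chr5:120907526-120907725: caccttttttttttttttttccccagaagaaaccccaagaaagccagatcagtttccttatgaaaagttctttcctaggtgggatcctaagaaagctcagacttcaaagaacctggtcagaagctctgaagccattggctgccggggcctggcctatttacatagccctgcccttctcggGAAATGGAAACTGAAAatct
Tap1, plus strand, chr17:34187356-34187555: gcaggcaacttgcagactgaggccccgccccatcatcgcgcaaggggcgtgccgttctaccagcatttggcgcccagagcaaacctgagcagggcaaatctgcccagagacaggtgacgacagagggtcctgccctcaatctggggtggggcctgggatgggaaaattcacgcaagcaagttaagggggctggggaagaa
The matches begin 122 and 156 bases before the start in Ifit3, 85 and 104 bases in Ifit1, 66, 72 and 78 bases in Isg15, 124 and 130 bases in Bst2, and 14 and 20 bases in Oas1a. In the last 3 of these they overlap and run together. In Ifit3 and Ifit1 the letters lie on the other strand and so read as TTTC blocks here. Dhx58, Zbp1, Oas2, Mx1, Mx2, Rtp4, Usp18, Parp9 and Parp14 had no entry in the table.

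Total counts ran from 16345740 to 29277311 per library. The 8 cholangiocyte markers, among them Epcam and Krt19, were counted in every library, with sums from 2256 to 21872 CPM (counts scaled to the size of each library, with TMM factors that correct for composition). Markers of other cells were present too, and in bulk RNA fewer cells of a type and less RNA per cell cannot be told apart. Sums of 8 stellate cell and fibroblast markers ran from 212 to 12345 CPM and of 8 endothelial markers from 96.0 to 10004 CPM. No library repeated another.

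In most libraries the members were expressed at modest, similar levels. The median over the 37 members was 37.5 to 39.2 CPM in the WT libraries at 1 month, 31.0 to 41.1 CPM in PLD at 1 month, 22.2 to 50.5 CPM in WT at 2 months, 20.9 to 28.1 CPM after CPTH6 and 27.8 to 46.2 CPM after ML324. In PLD at 2 months it was 40.6, 206 and 59.8 CPM in replicates 1, 2 and 3. Replicate 2 of that group therefore stood above every other library, and its values are given apart below. Per kilobase of exon, Bst2, which encodes tetherin, a membrane protein that holds budding viruses to the cell, was the most abundant member in WT at 2 months (group mean 218 CPM per kilobase), and Oas3 the least (0.68 CPM per kilobase). In PLD at 2 months the order rested on replicate 2. Over all 3 libraries Ifit3 led, at 239 CPM per kilobase, followed by Isg15 at 209.8 and Bst2 at 193, while without replicate 2 Bst2 led at 116, followed by Oasl1 at 78.0 and Isg15 at 77.7, and Ifit3 stood at 31.1.

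**Figure D1:**
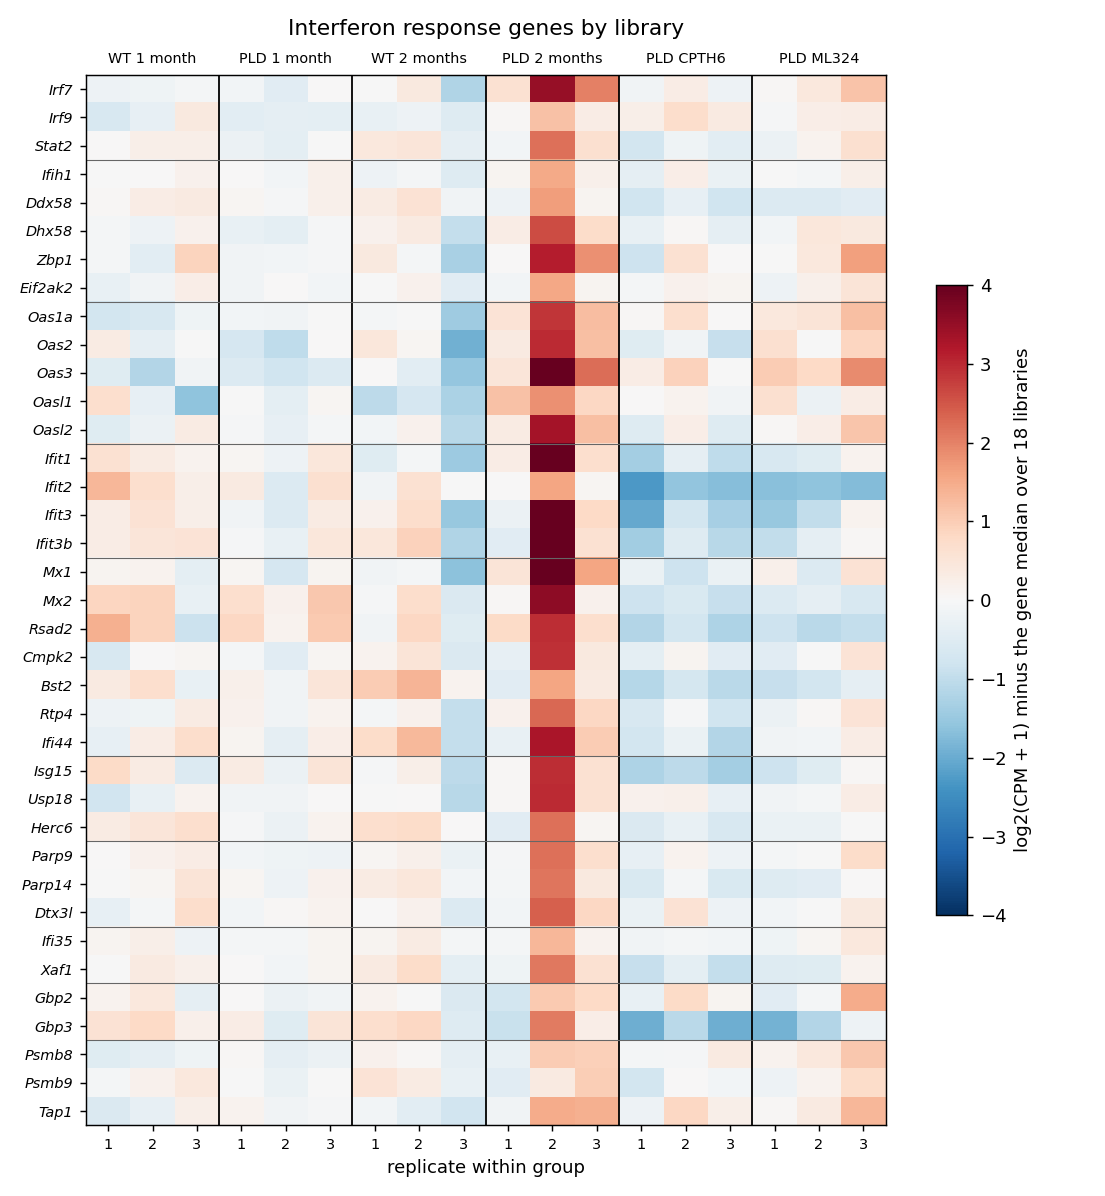
Levels of the 37 interferon response genes (rows, grouped by role) in the 18 libraries (columns, 3 replicates per group), as log2(CPM + 1) minus each gene's median over all libraries, with colours saturating at 4 above and below the median. The column of PLD replicate 2 at 2 months is the darkest for nearly all genes, and WT replicate 3 at 2 months is below its group for 36 of 37.

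PLD replicate 2 at 2 months held the highest level of its group for 36 of 37 members and the highest of all 18 libraries for 34. It was at least 2-fold above both other replicates for 31 members, against 3.56% of the 18364 genes that passed the filter over all libraries. For 13 members it was at least 4-fold above, and the share of all genes at 4-fold was not computed. The ratio to the higher of the other replicates had a median of 3.01 and ran from 0.641 for Psmb9, an immunoproteasome subunit, to 18.01 for Ifit3b. This library was chosen for its high mean over these genes, so its ratios are a description with no test. Roles differed in how far it stood out. The IFIT genes, whose proteins bind viral RNA and block its translation, had a median ratio of 13.1, the ISG15 system 5.14, other antiviral effectors 4.85, the OAS family 3.44, the PARP group 2.95, transcription factors 2.75, sensors 2.73, other regulators 2.63, guanylate binding proteins 2.38 and antigen processing genes 1.05. The 6 members under a 2-fold ratio were Irf9 (1.88), Oasl1 (1.59), Gbp2 (1.19), Psmb8 (1.06), Tap1 (1.05) and Psmb9. Members with the response element letters in their window had a median ratio of 3.31, and the 14 with a window but without the letters 2.81. These sets overlapped, with the lowest ratio with the letters 1.19 for Gbp2 and the highest without them 5.995 for Cmpk2.

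The other replicates of that group were not alike either. Replicate 3 was above replicate 1 for 35 of 37 members, by a median ratio of 1.66 that reached 3.74 for Zbp1, and replicate 1 was the lowest of the group for those 35. It was at least 2-fold below both others for 11 members, against 4.51% of all genes. In WT at 2 months replicate 3 was the lowest for 36 members, all but Ifit2, and at least 2-fold below both others for 15, against 5.70% of all genes. In the ML324 group replicate 3 was the highest for 32 members, and at least 2-fold above both others for 3, against 2.30% of all genes. Shares of all genes for being merely highest or lowest were not computed.

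Markers of other cells were set beside these levels. In PLD replicates 1, 2 and 3 at 2 months, the cholangiocyte sum was 14039, 12188 and 13433 CPM and the sum of plasmacytoid dendritic cell markers, of which 7 of 8 had a count and Cox6a2 had none, was 107.5, 108.0 and 102.0 CPM. Replicate 2 held the lowest sum for macrophage and Kupffer cell markers (1442, 785 and 1180.5 CPM), T and NK cell markers (21.9, 6.17 and 30.2 CPM) and the pan-leukocyte markers (169.7, 70.6 and 167 CPM), and the highest for endothelial markers (519, 1062 and 400.2 CPM). All 10 macrophage, all 10 T and NK cell, all 4 pan-leukocyte and all 8 endothelial markers had a count in this group. The part of endothelial cells in the level of the members was not tested. Transcripts of most interferon genes were scarce, and the proteins they encode were not measured. Ifnb1, which encodes interferon beta, stood at 10.8, 0.805 and 2.30 CPM in replicates 1, 2 and 3. Its highest level in the 18 libraries was 17.8 CPM, in WT replicate 1 at 1 month. The 9 other interferon genes on the pathway list were at most 0.464 CPM in any library. The part of interferon in the level of the members was not tested.

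The comparison of PLD with WT at 2 months asked how these genes differ once cysts have had longer to form. By edgeR, 19 of 37 members (51.4%) were higher in PLD and 0 lower (adjusted p under 0.05), against 19.7% of all genes called higher. The median change was 1.53 on the log2 scale, where the median over all genes was -0.03, and 36 members had a positive change. The count moved when single libraries were left out. Without PLD replicate 2 it was 9 of 37 (24.3%), against 16.6% of all genes, and the median change was 0.47. Those 9, all among the 19, were Ifih1, Ifit1, Irf7, Mx1, Oas1a, Oas3, Oasl1, Oasl2 and Tap1. Without WT replicate 3 the count was 8 (21.6%), all of those 9 except Ifih1, against 17% of all genes. Without WT replicate 1 or 2 it was 11 each. Calls over all genes, in either direction, fell too, from 7091 to 5324 without WT replicate 2. All PLD libraries were above all WT libraries for 10 members (27%), a share close to the 26.1% of all genes. In the same libraries endothelial markers summed to 5536 to 10004 CPM in WT and 400.2 to 1062 CPM in PLD, and cholangiocyte markers to 2256 to 4500 CPM in WT and 12188 to 14039 CPM in PLD. Hepatocyte markers, all 6 counted, summed to 635 to 910.2 CPM in WT and to 5456, 2449 and 5012 CPM in PLD replicates 1, 2 and 3. The part of these shifts in the changes was not tested.

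**Figure D2:**
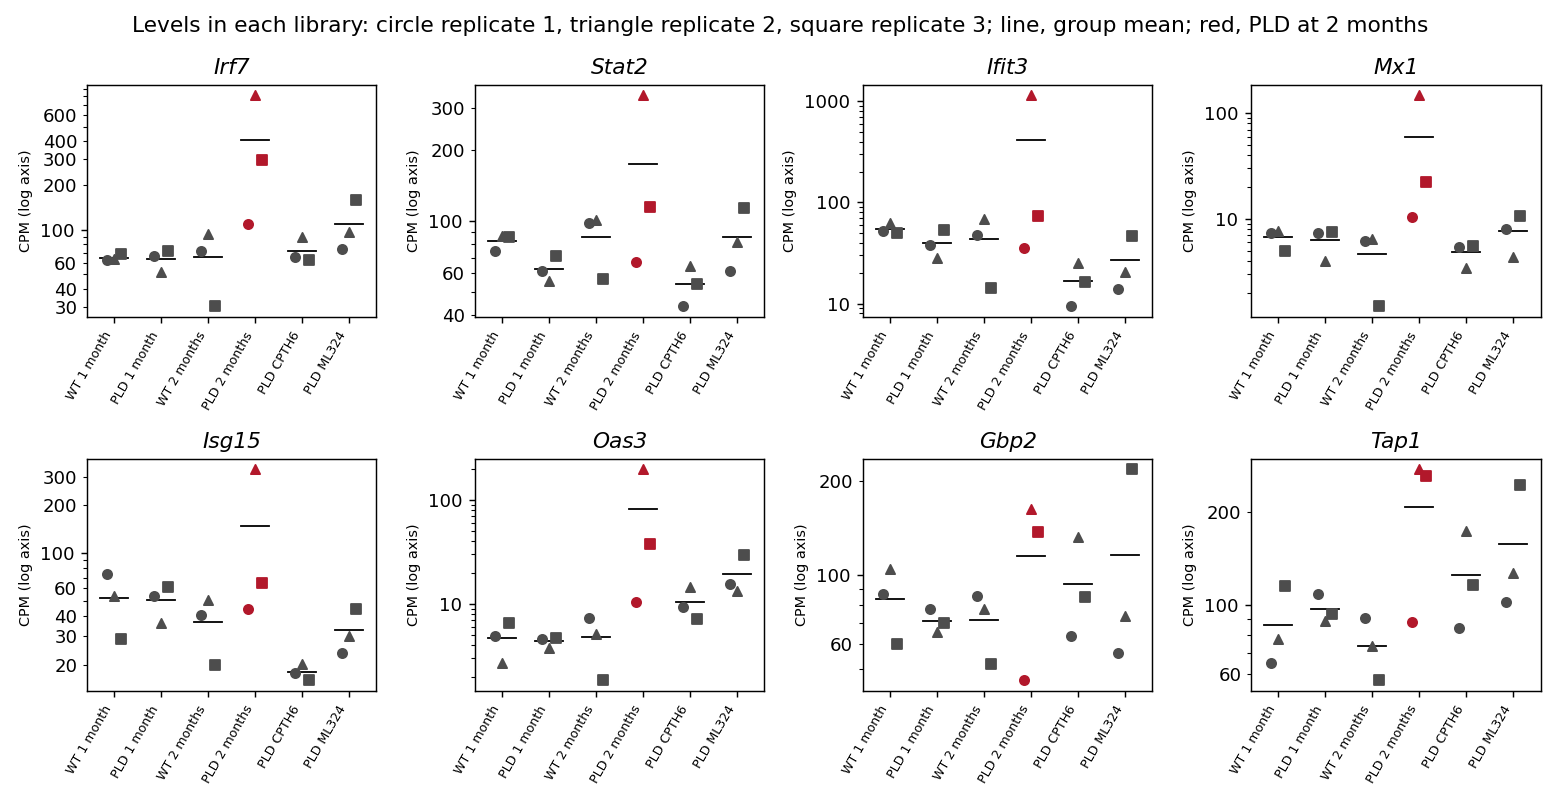
CPM of 8 members in each library on log axes, with each group's mean as a line and PLD at 2 months in red. Ifit3 reaches 1142 CPM in PLD replicate 2 at 2 months, while for Tap1 replicates 2 and 3 of that group lie side by side at 276 and 261 CPM.

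Among the transcription factors, Irf7 and Irf9 rose. Irf7 (ENSMUSG00000025498.15, chromosome 7 from 141262706 to 141266481, mm10), the factor that amplifies interferon production, stood at 71.5, 93.5 and 30.4 CPM in WT and 109.7, 812 and 295 CPM in PLD. Every PLD library lay above every WT library, and the change was 2.65 ± 0.61 (log2, ± SE, n = 3 per group, edgeR adjusted p = 0.00598), or 1.70 ± 0.45 without PLD replicate 2 (edgeR adjusted p = 0.0174). Irf9 (ENSMUSG00000002325.15, chromosome 14 from 55603571 to 55610030), the DNA-binding part of ISGF3, stood at 75.5, 80.2 and 64.2 CPM in WT and 95.6, 213 and 114 CPM in PLD. Its groups did not overlap, but the change of 0.95 ± 0.30 (edgeR adjusted p = 0.0287) was not called without PLD replicate 2 (0.57 ± 0.26, edgeR adjusted p = 0.121). Stat2 (ENSMUSG00000040033.16, chromosome 10 from 128270559 to 128292849), which carries the activating domain of the complex, was not called. It stood at 97.8, 101 and 56.6 CPM in WT and 67.1, 338 and 114 CPM in PLD, so that PLD replicate 1 was below 2 of the WT libraries (change 1.03 ± 0.46, edgeR adjusted p = 0.0966).

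Of the nucleic acid sensors, 3 of 5 rose. Ifih1 (ENSMUSG00000026896.14, chromosome 2 from 62595798 to 62646255), the sensor of long double-stranded RNA called MDA5, stood at 66.5, 72.6 and 53.3 CPM in WT and 82.0, 221 and 87.8 CPM in PLD, with no overlap. It changed by 1.03 ± 0.31 (edgeR adjusted p = 0.0233), and by 0.47 ± 0.15 without PLD replicate 2, where it was still called (edgeR adjusted p = 0.0379). Without WT replicate 3 the change was 0.93 ± 0.37 and not called (edgeR adjusted p = 0.0753). Zbp1, a sensor of Z-form nucleic acid, changed by 2.42 ± 0.70, and Dhx58, a regulator of RNA sensing, by 1.66 ± 0.54. They changed by 1.48 ± 0.62 and 0.65 ± 0.34 without PLD replicate 2, where neither was called, and in both PLD replicate 1 (11.99 CPM for Zbp1, 20.1 for Dhx58) was within the WT range. Ddx58, the RNA sensor RIG-I, and Eif2ak2, the kinase that stops translation when it binds double-stranded RNA, were not called, at 0.51 ± 0.40 and 0.83 ± 0.37.

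All 5 members of the OAS family rose, and 4 of them without PLD replicate 2. These proteins are oligoadenylate synthetases, which make a messenger that switches on the RNA-degrading enzyme RNase L, and relatives of them. Oas3 (ENSMUSG00000032661.9, chromosome 5 from 120753098 to 120777661) stood at 7.37, 5.195 and 1.86 CPM in WT and 10.5, 198 and 38.2 CPM in PLD. Its change of 4.09 ± 0.91 (edgeR adjusted p = 0.0052) was the largest of the 37 and was 2.40 ± 0.61 without PLD replicate 2 (edgeR adjusted p = 0.0149). Oas1a (ENSMUSG00000052776.10, chromosome 5 from 120896256 to 120907521) stood at 29.0, 30.4 and 10.7 CPM in WT and 45.3, 225 and 73.6 CPM in PLD, a change of 2.30 ± 0.54 (edgeR adjusted p = 0.00694). Oasl1 (ENSMUSG00000041827.15, chromosome 5 from 114923240 to 114937915), an OAS-like protein, had the smallest adjusted p of the list. It stood at 48.0, 63.4 and 41.3 CPM in WT and 227, 361 and 180.4 CPM in PLD, so every PLD library was well above the WT range, and the change was 2.34 ± 0.48 with PLD replicate 2 (edgeR adjusted p = 0.00331) and 2.06 ± 0.49 without it (edgeR adjusted p = 0.011). Oasl2 (ENSMUSG00000029561.17, chromosome 5 from 114896936 to 114912234) stood at 88.5, 108 and 43.8 CPM in WT and 121, 977 and 219 CPM in PLD. Its change was 2.46 ± 0.65 (edgeR adjusted p = 0.0126), and its groups, like those of Oas3, Oas1a and Oasl1, did not overlap. Oas2 (ENSMUSG00000032690.16, chromosome 5 from 120730333 to 120749853) is the exception without PLD replicate 2. It stood at 35.0, 27.0 and 5.98 CPM in WT and 32.6, 206 and 59.8 CPM in PLD, with overlap at PLD replicate 1, and changed by 2.14 ± 0.70 (edgeR adjusted p = 0.0324), or 1.09 ± 0.59 without PLD replicate 2 (edgeR adjusted p = 0.18).

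The IFIT genes followed PLD replicate 2 most closely. Ifit1 (ENSMUSG00000034459.8, chromosome 19 from 34640871 to 34650009) stood at 21.4, 28.5 and 10.3 CPM in WT and 37.5, 511 and 48.6 CPM in PLD. Its groups did not overlap, and it changed by 3.31 ± 0.87 (edgeR adjusted p = 0.0117), or 1.17 ± 0.35 without PLD replicate 2 (edgeR adjusted p = 0.0286). Ifit3 (ENSMUSG00000074896.3, chromosome 19 from 34583531 to 34588731) stood at 47.6, 68.8 and 14.2 CPM in WT and 35.6, 1142 and 73.0 CPM in PLD. The rise of 3.26 ± 1.08 (edgeR adjusted p = 0.034) came with PLD replicate 1 inside the WT range, and without replicate 2 the change was 0.39 ± 0.53 and not called. Ifit2 (ENSMUSG00000045932.12, chromosome 19 from 34550694 to 34576419), at 41.9, 71.0 and 45.2 CPM in WT and 47.0, 141 and 49.1 CPM in PLD, was not called (0.59 ± 0.47). Ifit3b, a close copy of Ifit3 whose reads may be shared with it, was not called at 3.02 ± 1.11 (edgeR adjusted p = 0.0508).

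Mx1 and Rtp4 rose among the 7 other antiviral effectors. Mx1 (ENSMUSG00000000386.16, chromosome 16 from 97447035 to 97462907), a dynamin-like GTPase that traps influenza virus, stood at 6.17, 6.39 and 1.496 CPM in WT and 10.4, 147 and 22.4 CPM in PLD. No PLD library overlapped WT, and the change was 3.67 ± 0.89 (edgeR adjusted p = 0.00802), or 1.87 ± 0.54 without PLD replicate 2 (edgeR adjusted p = 0.0263). Rtp4 changed by 1.63 ± 0.47, and by 0.84 ± 0.32 without that library, which was not called. Rsad2 (ENSMUSG00000020641.16, chromosome 12 from 26442746 to 26456452), which encodes viperin, an enzyme that makes a chain-terminating nucleotide, stood at 44.8, 88.2 and 35.4 CPM in WT and 85.8, 391 and 79.7 CPM in PLD. Both lower PLD libraries were below the highest WT library, and the change was not called (1.73 ± 0.70, edgeR adjusted p = 0.0699). Bst2, Cmpk2, Ifi44 and Mx2 were not called either, and Bst2, at 211, 265 and 114 CPM in WT and 75.9, 314 and 134 CPM in PLD, had the only negative change among the members (-0.16 ± 0.47).

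In the ISG15 system 2 of 3 genes rose and in the PARP group 2 of 3. Isg15 (ENSMUSG00000035692.7, chromosome 4 from 156199455 to 156200796), a ubiquitin-like protein joined to other proteins, stood at 40.9, 50.5 and 19.9 CPM in WT and 44.5, 333 and 64.8 CPM in PLD. PLD replicate 1 lay inside the WT range, and the change was 1.99 ± 0.68 (edgeR adjusted p = 0.0381). Usp18, the protease that removes Isg15 and damps the receptor, changed by 2.14 ± 0.66, while Herc6, the ligase that attaches Isg15 in mice, was not called (0.63 ± 0.55). Parp9 (ENSMUSG00000022906.15, chromosome 16 from 35938470 to 35972605), an ADP-ribosyltransferase family member, stood at 53.7, 58.3 and 42.1 CPM in WT and 49.5, 238 and 81.6 CPM in PLD, again with PLD replicate 1 in the WT range. It changed by 1.27 ± 0.43 (edgeR adjusted p = 0.0369) and its partner Dtx3l, a ubiquitin ligase, by 1.53 ± 0.52. Their exons overlap on opposite strands over 458 bases, and the counts do not separate strands. Without PLD replicate 2 no member of either group was called (0 of 6 by edgeR), with Isg15 at 0.62 ± 0.43, Usp18 at 0.72 ± 0.36, Parp9 at 0.41 ± 0.20 and Dtx3l at 0.61 ± 0.36.

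In Tap1, Psmb8 and Gbp2, PLD replicate 2 was at most 1.19-fold above replicate 3. Tap1 (ENSMUSG00000037321.17, chromosome 17 from 34187553 to 34197225), a subunit of the transporter that brings peptides to MHC class I, stood at 91.1, 73.6 and 57.2 CPM in WT and 88.2, 276 and 261 CPM in PLD. Replicate 1 of PLD was within WT, and the change was 1.51 ± 0.37 (edgeR adjusted p = 0.00893), or 1.30 ± 0.40 without replicate 2 (edgeR adjusted p = 0.0326). Psmb8 (ENSMUSG00000024338.15, chromosome 17 from 34197721 to 34201454), an immunoproteasome subunit, stood at 61.0, 56.3 and 41.9 CPM in WT and 43.8, 111 and 105 CPM in PLD and was not called (0.72 ± 0.29, edgeR adjusted p = 0.0693). Gbp2 (ENSMUSG00000028270.12, chromosome 3 from 142620602 to 142638008), a GTPase best known from the response to interferon gamma, showed the same order of libraries, at 85.8, 77.8 and 51.8 CPM in WT and 46.1, 163 and 137 CPM in PLD (0.70 ± 0.38). Gbp2, Gbp3 and Psmb9 were not called, and neither were the regulators Xaf1 and Ifi35. Ifi35 (ENSMUSG00000010358.13, chromosome 11 from 101448407 to 101458698) stood at 31.4, 36.6 and 27.6 CPM in WT and 27.3, 75.4 and 32.1 CPM in PLD, with replicate 2 above the WT range and replicate 1 just below it (0.51 ± 0.31).

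**Figure D3:**
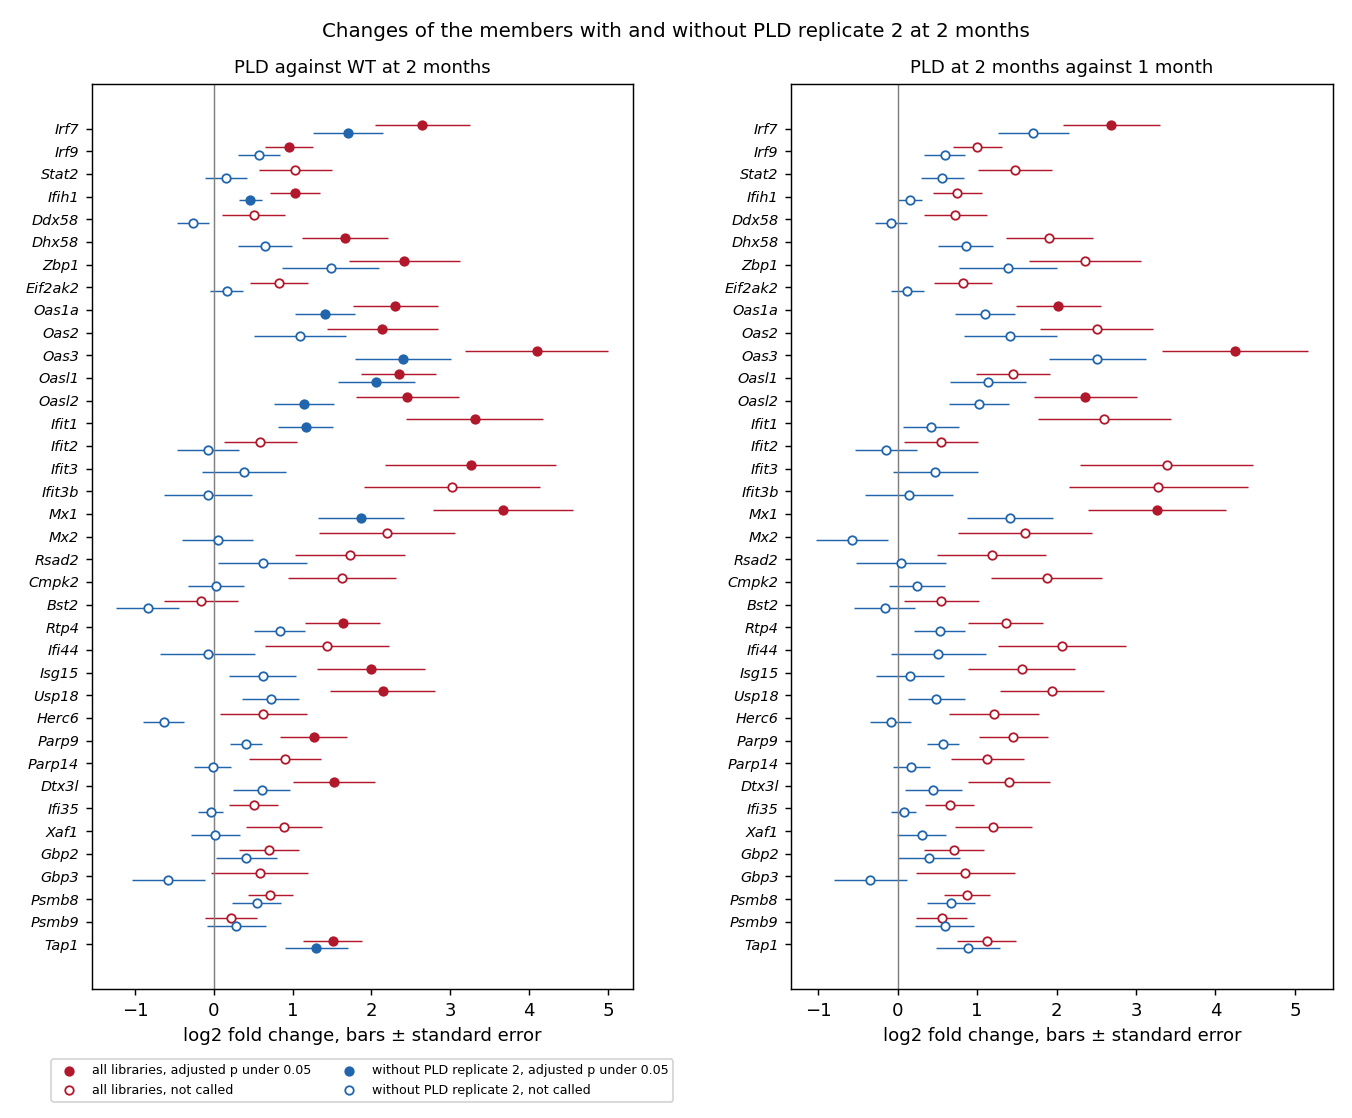
Change of each member (log2 fold change, bars ± standard error) in PLD against WT at 2 months and in PLD at 2 months against 1 month, with all libraries in red and without PLD replicate 2 at 2 months in blue; filled points have an adjusted p under 0.05. The blue points lie nearer to 0 for most genes, and Ifit3 and Ifit3b move furthest between the fits.

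At 1 month no member passed the test between genotypes. None of the 37 was called by edgeR (0 at an unadjusted p under 0.05, 0 by DESeq2 and 0 by limma-voom), against 5.03% of all genes called in either direction, and the median change was -0.15. Irf7 stood at 62.6, 63.3 and 68.2 CPM in WT and 66.8, 51.9 and 71.6 CPM in PLD, Ifit3 at 51.6, 63.0 and 49.3 CPM in WT and 38.2, 28.3 and 53.3 CPM in PLD, and both pairs of groups overlapped. In WT libraries 2 months against 1 month gave no call either (0 by edgeR, 0 at an unadjusted p under 0.05, 0 by DESeq2 and 0 by limma-voom), with a median change of -0.16 and 0.0507% of all genes called. WT replicate 3 at 1 month stood apart. Its cholangiocyte sum was 8838 CPM against 3308 and 3196 CPM, and its stellate cell and fibroblast sum 1987 against 11078 and 12345 CPM. It was at least 2-fold below both other replicates for 13.3% of all genes. Calls over all genes between genotypes at 1 month rose from 892 to 3485 without it, and fell to 29 with only the libraries compared. Leaving out any single library gave 0 member calls in both comparisons.

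Within PLD, 5 of 37 members (13.5%) were higher at 2 months than at 1 month, against 4.38% of all genes called higher, and all 37 changes were positive with a median of 1.45. This comparison and the one between genotypes at 2 months share the PLD libraries at 2 months. The 5 were Oas3 at 4.24 ± 0.92 (edgeR adjusted p = 0.0227), from 4.64, 3.78 and 4.72 CPM at 1 month, Irf7 at 2.69 ± 0.61 (edgeR adjusted p = 0.0254), Oas1a at 2.02 ± 0.54, Mx1 at 3.26 ± 0.87 and Oasl2 at 2.36 ± 0.65. In PLD at 1 month Oas1a stood at 28.0, 27.4 and 29.9 CPM, Mx1 at 7.36, 3.98 and 7.53 CPM and Oasl2 at 92.0, 75.6 and 89.9 CPM. Without PLD replicate 2 at 2 months none was called by edgeR (0 of 37, 11 at an unadjusted p under 0.05), against 1.25% of all genes, and the median change was 0.48. Leaving out PLD replicate 3 at 2 months, or replicate 1, 2 or 3 of PLD at 1 month, also gave 0 calls, and leaving out PLD replicate 1 at 2 months gave 12. Over all genes, calls in either direction fell from 1706 to 135 without PLD replicate 3 at 1 month. All 2-month libraries were above all 1-month libraries for 13 members (35.1%), against 19.5% of all genes, and Irf7, Oas1a and Oas3 were among them. Marker sums moved between the same libraries, from 1787 to 3451 CPM at 1 month to 400.2 to 1062 CPM at 2 months for endothelial cells and from 451 to 599 CPM to 785 to 1442 CPM for macrophages and Kupffer cells. Their part in these changes was not tested.

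The difference between the genotype effects at the 2 times, tested as an interaction, was called for none of the members by edgeR (0 of 37, 19 at an unadjusted p under 0.05), against 5.68% of all genes by edgeR. DESeq2 called 7 members, and 2343 genes over all against 1008 by edgeR, and limma-voom called 0 members. The median was 1.63 and the smallest adjusted p that of Oasl1 (2.31 ± 0.65, edgeR adjusted p = 0.064). Without PLD replicate 2 it was again 0 (10 at an unadjusted p under 0.05), against 1.12% of all genes called higher, with a median of 0.66. Calls rose to 3 without PLD replicate 1 at 2 months and to 1 without WT replicate 3 at 1 month.

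Libraries of treated PLD mice were set against untreated PLD at 2 months. Treatment and the later time cannot be told apart, both comparisons share the untreated libraries, and PLD replicate 2 is one of these. After CPTH6, 23 of 37 members (62.2%) were lower by edgeR and 0 higher, against 13.7% of all genes called lower, with a median change of -1.82. Without PLD replicate 2 the count was 15 (40.5%), against 11.3%, with a median of -0.98, and all 15 were among the 23. All CPTH6 libraries were below all 3 untreated libraries for 19 members (51.4%), against 24.4% of all genes. Counts fell to 4, 8 and 4 when CPTH6 replicate 1, 2 or 3 was left out. Over all genes, calls in either direction fell from 3818 to 2490 without CPTH6 replicate 3. After ML324, 9 members (24.3%) were lower and 0 higher, against 11.4% of all genes, with a median change of -1.36. Without PLD replicate 2 it was 3 (8.11%), close to the 9.5% of all genes, with a median of -0.30. All ML324 libraries were below all 3 untreated libraries for 7 members (18.9%), near the 23.1% of all genes. Without ML324 replicate 1, 2 or 3 the counts were 3, 2 and 2, and without PLD replicate 1 it was 24. Over all genes, calls in either direction fell from 3203 to 1939 without ML324 replicate 3.

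The members called lower after both compounds with and without PLD replicate 2 were Ifit2, Rsad2 and Mx2. Ifit2 stood at 8.64, 14.8 and 13.3 CPM after CPTH6 and 13.6, 14.4 and 13.2 CPM after ML324, against 47.0, 141 and 49.1 CPM in untreated PLD. Neither treated group overlapped the untreated one, nor any of the untreated WT and PLD libraries, whose lowest value was 31.0 CPM. Its change was -2.68 ± 0.40 for CPTH6 (edgeR adjusted p = 0.00206) and -2.46 ± 0.40 for ML324 (edgeR adjusted p = 0.00377), and -1.97 ± 0.19 and -1.76 ± 0.19 without PLD replicate 2. Rsad2 stood at 21.5, 29.2 and 20.6 CPM after CPTH6 and 27.8, 23.1 and 25.2 CPM after ML324, against 85.8, 391 and 79.7 CPM. It changed by -2.95 ± 0.55 (edgeR adjusted p = 0.00539) and -2.81 ± 0.55 (edgeR adjusted p = 0.00829), and by -1.80 ± 0.15 and -1.66 ± 0.15 without that library. Mx2 changed by -3.18 ± 0.86 and -2.83 ± 0.86, and by -0.98 ± 0.16 and -0.64 ± 0.17 without it.

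Isg15, Irf7, Oasl1 and Mx1 were lower after CPTH6 with and without PLD replicate 2. Isg15 stood at 17.6, 20.2 and 16.0 CPM after CPTH6 and 23.6, 30.2 and 44.3 CPM after ML324, against 44.5, 333 and 64.8 CPM. For CPTH6 it changed by -3.03 ± 0.67 (edgeR adjusted p = 0.011) and by -1.61 ± 0.25 without that library (edgeR adjusted p = 0.00315). For ML324 it changed by -2.11 ± 0.64 (edgeR adjusted p = 0.0467) but was not called without it (-0.70 ± 0.25). Irf7 stood at 65.0, 88.7 and 62.0 CPM after CPTH6, below all untreated PLD libraries at 2 months, and at 73.6, 96.1 and 158 CPM after ML324, where replicate 3 was above the lowest untreated library. Its changes were -2.49 ± 0.60 for CPTH6 (edgeR adjusted p = 0.016) and -1.83 ± 0.59 for ML324, which was not called (edgeR adjusted p = 0.0548). Oasl1 stood at 102, 112 and 91.6 CPM after CPTH6 (-1.32 ± 0.27, edgeR adjusted p = 0.0077) and 156, 85.6 and 124 CPM after ML324 (-1.01 ± 0.27, edgeR adjusted p = 0.0281). Mx1 stood at 5.49, 3.41 and 5.57 CPM after CPTH6 (-3.62 ± 0.87, edgeR adjusted p = 0.016) and 7.99, 4.40 and 10.7 CPM after ML324 (-2.90 ± 0.85, edgeR adjusted p = 0.04), where replicate 3 was just above the lowest untreated library. Among the RNA-binding IFIT proteins, Ifit1 stood at 11.2, 23.0 and 14.3 CPM after CPTH6 and 19.0, 21.3 and 33.5 CPM after ML324, all below untreated PLD (-3.61 ± 0.91 and -2.96 ± 0.89). When PLD replicate 2 was left out, Oasl1, Mx1 and Ifit1 were called for CPTH6 (-1.001 ± 0.22, -1.76 ± 0.42 and -1.42 ± 0.31) and not for ML324 (-0.69 ± 0.22, -1.05 ± 0.42 and -0.77 ± 0.31). Ifit3, at 9.40, 25.0 and 16.2 CPM after CPTH6 and 14.0, 20.7 and 46.2 CPM after ML324, had the largest change of the members for either compound, at -4.62 ± 1.21 for CPTH6 (edgeR adjusted p = 0.0231) and -3.89 ± 1.17 for ML324 (edgeR adjusted p = 0.0445). Neither was called without PLD replicate 2, at -1.69 ± 0.52 (edgeR adjusted p = 0.0506) and -0.97 ± 0.52. Of the OAS family, 5 of 5 were lower after CPTH6 and 1 of 5, Oasl1, after ML324, and without PLD replicate 2 it was 2 of 5, Oas2 and Oasl1, and 0 of 5 (edgeR). No antigen processing gene was called for either compound (0 of 3 each by edgeR), and Tap1 stood at 84.4, 174 and 116 CPM after CPTH6 and 102, 127 and 246 CPM after ML324.

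Other cell markers also differed between treated and untreated PLD. Stellate cell and fibroblast markers, all 8 counted, summed to 2477 to 5557 CPM in untreated PLD at 2 months, 278 to 330 CPM after CPTH6 and 212 to 729.7 CPM after ML324. Macrophage and Kupffer cell markers, all 10 counted, summed to 785 to 1442 CPM, 582 to 685 CPM and 509 to 599 CPM in the same order, and plasmacytoid dendritic cell markers to 102.0 to 108.0, 66.2 to 67.0 and 67.6 to 81.2 CPM. Endothelial markers, all 8 counted, summed to 400.2 to 1062 CPM in untreated PLD, 134 to 232 CPM after CPTH6 and 96.0 to 510.2 CPM after ML324, and T and NK cell markers, 9 of 10 counted in each treated group, to 6.17 to 30.2, 2.00 to 4.78 and 2.24 to 4.94 CPM. Cholangiocyte markers were higher in the treated groups, from 12188 to 14039 CPM in untreated PLD to 17938 to 21872 CPM after CPTH6 and 15326 to 18720 CPM after ML324. Monocyte and neutrophil markers, all 6 counted, were higher too, from 19.4 to 48.0 CPM in untreated PLD to 96.0 to 767 CPM after CPTH6 and 131 to 693 CPM after ML324. The part of these cells in the lower member levels was not tested.

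**Figure D4:**
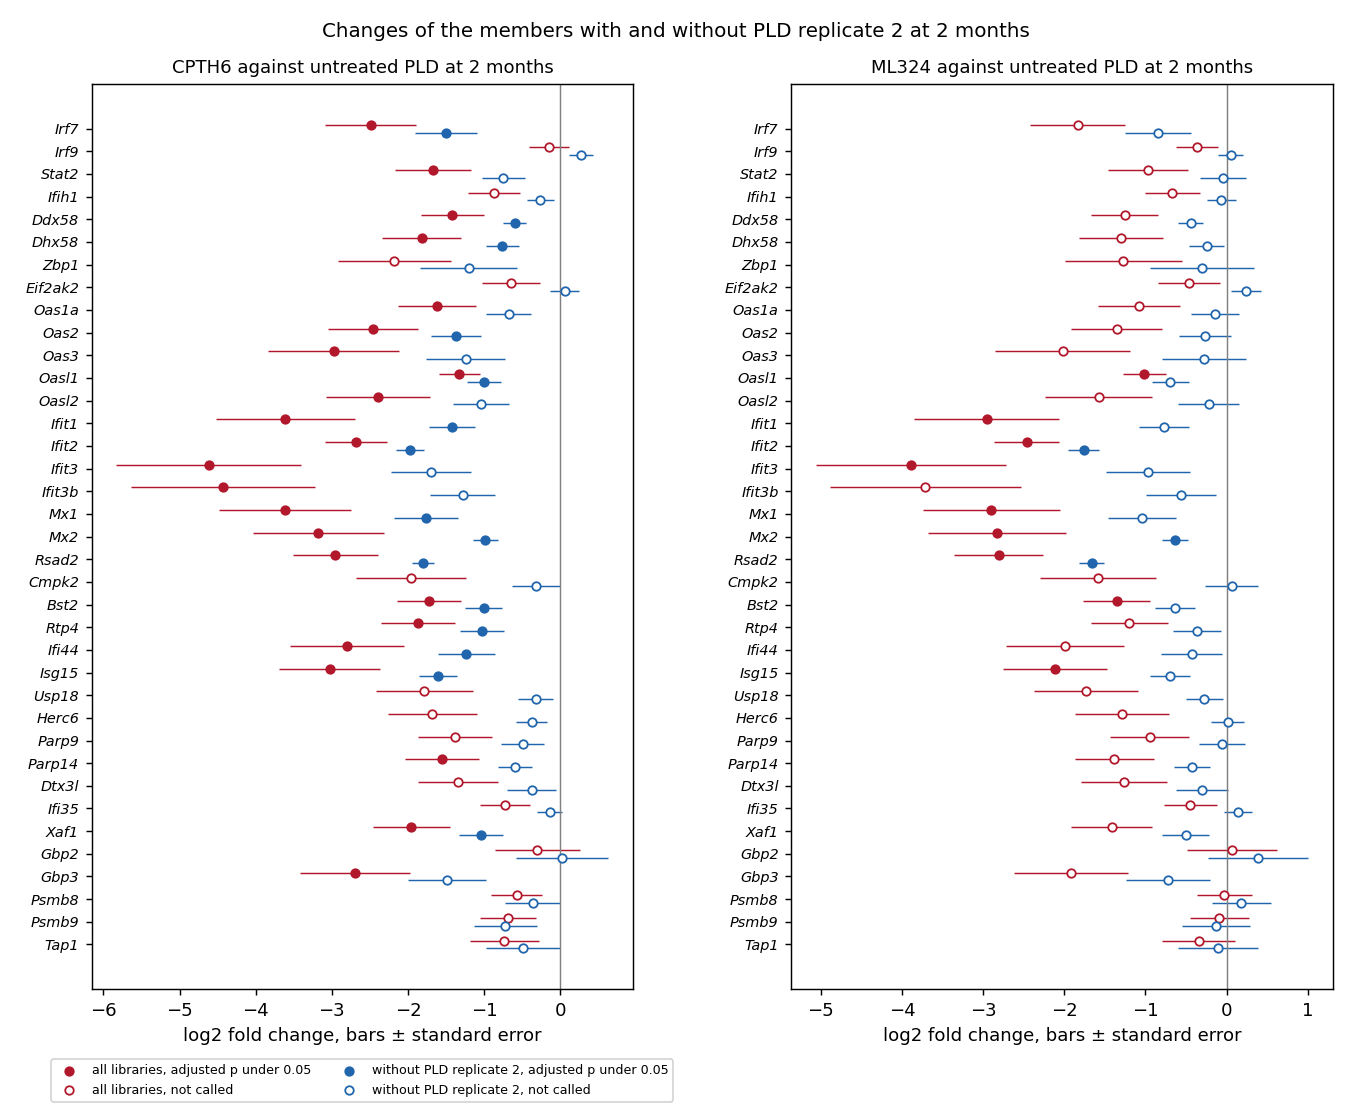
Change of each member (log2 fold change, bars ± standard error) after CPTH6 and after ML324 against untreated PLD at 2 months, with all libraries in red and without PLD replicate 2 in blue; filled points have an adjusted p under 0.05. Without that library 15 members stay filled for CPTH6 and 3 for ML324.

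Compared directly, CPTH6 and ML324 libraries showed no called difference in any member by edgeR (0 of 37, 11 at an unadjusted p under 0.05), and edgeR called 0% of all genes. DESeq2 called 2 members, and 299 genes over all, and limma-voom called 0 members. The change was negative, lower after CPTH6, for 36 members, with a median of -0.52. Oas2 had the smallest adjusted p. It stood at 17.9, 23.1 and 13.0 CPM after CPTH6 and 39.9, 25.4 and 46.5 CPM after ML324, with no overlap (-1.10 ± 0.26, edgeR adjusted p = 0.245).

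The machinery around these genes was read from a list of 45 ligands, receptors, kinases, regulatory factors, upstream sensors, inhibitors and antigen presentation partners, of which 35 passed the filter. The 10 that did not were 9 interferon genes and Trex1, a DNA-degrading enzyme whose exons lie wholly within those of Atrip and which had no count. In PLD against WT at 2 months 5 were higher, against 19.7% of all genes, and 3 lower, against 20.3%, with a median change of 0.10. The receptor subunits went apart. Ifnar2, of the type I receptor, stood at 74.7, 93.2 and 79.7 CPM in WT and 43.1, 38.6 and 47.7 CPM in PLD, with no overlap (-0.92 ± 0.21, edgeR adjusted p = 0.00547). Its partner Ifnar1, at 84.1, 89.5 and 78.3 CPM in WT and 96.0, 75.0 and 95.5 CPM in PLD, was not called (0.10 ± 0.12). Ifnlr1, of the type III receptor, which is largely restricted to epithelium, was higher at 11.7, 9.81 and 24.1 CPM in WT and 35.0, 34.3 and 25.6 CPM in PLD (1.08 ± 0.37, edgeR adjusted p = 0.0375). Its change was nearly the same without PLD replicate 2 but not called (1.05 ± 0.43, edgeR adjusted p = 0.0886). Jak1, the kinase that serves both receptors, was lower, at 354, 601 and 517 CPM in WT and 207, 230.2 and 191 CPM in PLD (-1.21 ± 0.26, edgeR adjusted p = 0.00474). Tmem173, which encodes the DNA-sensing adaptor STING, was lower as well, at 49.8, 56.7 and 39.5 CPM in WT and 19.8, 19.3 and 31.1 CPM in PLD (-1.03 ± 0.21, edgeR adjusted p = 0.0029). Cholangiocyte markers summed to 2256 to 4500 CPM in these WT libraries and 12188 to 14039 CPM in PLD. Endothelial markers summed to 5536 to 10004 CPM in WT and 400.2 to 1062 CPM in PLD. The part of these shifts in the changes of the pathway genes was not tested.

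Ikbke, a kinase that activates Irf3 and Irf7, had the smallest adjusted p of that list. It stood at 21.1, 16.7 and 18.7 CPM in WT and 49.3, 45.3 and 48.1 CPM in PLD at 2 months, where replicate 2 was the lowest of its group (1.36 ± 0.16, edgeR adjusted p = 0.00018, and 1.43 ± 0.18 without replicate 2). The remaining 3 called higher, named because they are few, were Ifngr2, Psme1 and Tapbp, at 0.63 ± 0.18, 0.50 ± 0.14 and 0.58 ± 0.20. They changed by 0.75 ± 0.19, 0.44 ± 0.15 and 0.46 ± 0.21 without PLD replicate 2, where only Ifngr2 was called. At 1 month 1 pathway gene was called, Tlr7, at 23.5, 13.3 and 16.0 CPM in WT and 2.21, 3.34 and 7.97 CPM in PLD (-1.98 ± 0.45, edgeR adjusted p = 0.0355), and in WT over time 0 were by edgeR (4 at an unadjusted p under 0.05). Within PLD over time Tlr9 was higher, at 1.19, 0.783 and 2.87 CPM at 1 month and 8.79, 4.13 and 9.16 CPM at 2 months (2.22 ± 0.53, edgeR adjusted p = 0.0302), with no overlap. Irf1, an early interferon-induced factor, was lower, at 374, 269 and 356 CPM at 1 month and 204, 262 and 211 CPM at 2 months (-0.54 ± 0.15, edgeR adjusted p = 0.0458), against 5.23% of all genes called lower. With PLD replicate 2 left out its change was -0.65 ± 0.16, no smaller but not called (edgeR adjusted p = 0.0571).

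Against untreated PLD, CPTH6 libraries had 8 of 35 pathway genes lower, against 13.7% of all genes, and 2 higher, against 9.39%. ML324 libraries had 5 lower, against 11.4% of all genes, and 1 higher, against 7.96%. Irf8, Tlr7 and Tlr9, a regulatory factor and 2 endosomal receptors of nucleic acid best known from immune cells, were lower after both. Irf8 stood at 31.6, 34.3 and 39.7 CPM in untreated PLD at 2 months, 7.79, 9.87 and 9.96 CPM after CPTH6 and 6.93, 12.5 and 6.67 CPM after ML324, with no overlap (-1.93 ± 0.23 and -1.97 ± 0.23). These 3 were called with and without PLD replicate 2 in both comparisons. Marker sums of other cells also differed between these groups, as given above, and their part in the pathway changes was not tested. Tlr9 stood at 2.02, 2.19 and 1.42 CPM after CPTH6 and 1.44, 0.772 and 0.885 CPM after ML324, and Tlr7 at 3.39, 4.39 and 4.62 CPM and 1.66, 1.90 and 1.71 CPM, all below untreated PLD. Ifngr1, of the interferon gamma receptor, was lower after CPTH6, at 127, 132 and 119.7 CPM against 162, 156 and 189 CPM (-0.42 ± 0.10, edgeR adjusted p = 0.0129). Tbk1, the kinase upstream of Irf3, was higher after ML324, at 67.3, 68.4 and 74.0 CPM against 46.3, 53.1 and 43.5 CPM (0.61 ± 0.10, edgeR adjusted p = 0.00376), and Irf1 was lower, at 142, 175 and 116 CPM (-0.59 ± 0.15, edgeR adjusted p = 0.0258, and -0.48 ± 0.16 without PLD replicate 2, edgeR adjusted p = 0.0681).

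Many members are neighbours in the genome. With gaps of up to 200 kilobases, 21 of the 37 fall into 8 clusters, and the members lie on 14 chromosomes in all. On chromosome 19 Ifit2, Ifit3, Ifit3b and Ifit1 stand in a row, on chromosome 5 Oas2, Oas3 and Oas1a, and Oasl2 with Oasl1, and on chromosome 16 Parp14, Dtx3l and Parp9, and Mx1 with Mx2. On chromosome 17 Psmb9, Tap1 and Psmb8 adjoin, Psmb9 and Tap1 share 212 exon bases on opposite strands, and reads there cannot be assigned by strand. Reads of close copies, such as Ifit3 and Ifit3b, the OAS genes, or Gbp2 and Gbp3, are uncertain in the same way.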

How the data were processed

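RNA with a poly(A) tail was sequenced from 18 libraries. The values are raw fragment counts per gene as the authors deposited them. Per the file headers they were made with featureCounts 1.6.0 on paired reads over GENCODE vM25 exons, with no strand or multi-mapping option, so reads shared by close copies and by antisense genes may be lost or misplaced. The submitters' processing notes name STAR 2.7.4a, mm10 and DESeq2 1.26.0.

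Groups were taken from the labels. The 37 members and the other lists were chosen with earlier results of these data known. Counts were tested in R 4.3.3 with edgeR 4.0.16 (glmQLFit and glmQLFTest, TMM factors, filterByExpr, Benjamini-Hochberg adjustment over all genes tested, threshold 0.05). One fit held the 12 untreated libraries (17749 genes tested), another the 6 treated libraries (15989), and another the 9 libraries of treated PLD and untreated PLD at 2 months (16502). Standard errors were derived from the log2 change and its quasi-likelihood F statistic. CPM used TMM factors over all 18 libraries. Total counts of 16345740 to 29277311 limit the precision of low genes. DESeq2 1.42.0, limma 3.58.1 (voom), other normalization, no filter, other sets of libraries, a replicate block and leaving out each library were tried. On simulated data for PLD against WT at 2 months (17749 genes) the test recovered 32% of 2-fold and 60% of 4-fold changes.

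Values in the libraries of the groups compared are given for members called in a comparison, up to 6 per comparison by adjusted p, for Irf7, Irf9 and Stat2, and for 1 member of each other role (Ifih1, Oas2, Ifit1, Mx1, Isg15, Parp9, Ifi35, Gbp2 and Psmb8), and of the pathway list for Ifnar1, Ifnar2, Ifnlr1, Irf1 and up to 4 called genes per comparison. One pathway gene that this rule names is not reported here. Other members and pathway genes are named by change only, after their values were seen. Promoters come from RefSeq, and gene coordinates from the file headers' annotation.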

Additional observations from a re-analysis of the deposited data

Results flagged for a closer look

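By the interaction term 1 of 35 pathway genes was called, against 5.68% of all genes in either direction. This was Ikbke, the kinase upstream of Irf7, whose PLD effect differed between 1 month and 2 months. In WT libraries it stood at 24.5, 25.1 and 33.9 CPM at 1 month and 21.1, 16.7 and 18.7 CPM at 2 months, and in PLD at 41.2, 37.6 and 31.1 CPM and then 49.3, 45.3 and 48.1 CPM. The effect at 2 months exceeded that at 1 month by 0.98 on the log2 scale (SE 0.22, edgeR adjusted p = 0.0309). Leaving out single libraries moved the Ikbke difference between 0.82 and 1.11, and the call was lost in 8 of these 12 fits, among them the one without PLD replicate 2 at 2 months (1.06, edgeR adjusted p = 0.0523).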

How the results depend on the processing

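No called change turned its sign under any alternative run, but changes that were not called did: without PLD replicate 2, 28 members were positive and 9 negative in PLD against WT at 2 months, and 3 were positive after CPTH6. Counts of members called moved widely. Calls over all genes, in either direction, moved too. In PLD against WT at 2 months 7091 became 5324 to 8089, and in PLD over time 1706 became 135 to 3811 (only the libraries compared). For the interaction 1008 became 100 to 2343 (DESeq2), and for WT over time 9 became 0 to 1224 (no filter). CPTH6 against ML324 went from 0 to at most 299 (DESeq2). After CPTH6 3818 became 2490 to 4522, and after ML324 3203 became 1939 to 4073, both highest with no filter. No share of all genes stands beside each member count below. In PLD against WT at 2 months the 19 members called higher became 11 with limma-voom, 11 with the replicate block, 11 with only the libraries compared, 30 with no filter on low counts, and 8 (without WT replicate 3) to 28 (without PLD replicate 1) when single libraries were left out. For PLD over time the 5 became 21 with DESeq2, 1 with limma-voom, 0 with the replicate block, 30 with no filter, 8 with only the libraries compared, 16 with all 18 libraries in one fit, and 0 to 12 without single libraries. The interaction went from 0 to 7 with DESeq2, 27 with no filter, 5 with all 18 libraries, and 0 to 3 without single libraries. For WT over time the count of lower members was 1 with no filter, and for CPTH6 against ML324 it was 2 with DESeq2 and 4 with no filter. After CPTH6 the 23 became 9 with limma-voom, 35 with no filter, and 4 (without CPTH6 replicate 1 or 3) to 31 (without PLD replicate 1). After ML324 the 9 became 3 with limma-voom, 32 with no filter, 3 with the replicate block, 2 with only the libraries compared, 15 with all 18 libraries, and 2 (without ML324 replicate 2 or 3) to 24 (without PLD replicate 1). The cause of these shifts was not tested. No clear pairing of same-numbered replicates was seen, as in no comparison did all 3 correlations of their deviations pass 0.1. For WT over time they were 0.080, 0.198 and 0.152, and for CPTH6 against ML324 0.256, 0.165 and -0.096. Such correlations cannot exclude pairing, so the meaning of a call lost under the block cannot be told, and it is not read as a weaker effect. Fits on only the libraries compared were not run for the interaction or for CPTH6 against ML324. Depth limits members such as Oas3 and Mx1, which stood at 1.86 and 1.496 CPM in WT replicate 3 at 2 months.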

Other observations

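Other genes stood apart with the members in PLD replicate 2 at 2 months. Of 9828 genes at or above 10 CPM there, the 50 with the largest ratio to the higher of the other replicates held 17 of the 37 members. The genes named next were chosen after their values were seen. Rnf213, a large ubiquitin ligase known to respond to interferon, stood at 301, 1926 and 425 CPM in replicates 1, 2 and 3. The immunoglobulin heavy chain gene Ighg1 stood at 50.4, 270.03 and 42.4 CPM, and Scnn1a, a subunit of the epithelial sodium channel, at 87.3, 446 and 53.4 CPM, so genes outside the interferon response were also high in that library.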
